A study of Mus musculus with 8 samples.

Results

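The BCL2 family, the caspases and their direct regulators carry out programmed cell death, and 45 of the 56324 gene models in the table of mouse germ cells belong to them. They were chosen by gene symbol alone: the Bcl2 genes and their BAX-like and BH3-only relatives, the numbered caspases, the baculoviral IAP repeat genes with Xiap, and Apaf1, Diablo, Fas, Fasl, Fadd and Cflar. The name pattern uses no measured value, though it was drawn up with earlier results of these data known. The study asked how Sam68, the RNA-binding product of Khdrbs1, acts on the processing of transcript ends as male germ cells differentiate. RNA was sequenced from spermatocytes, the cells in meiosis, and spermatids, the haploid cells that follow, with 4 libraries of each. Both cell types came from Sam68 -/- C57BL/6 males aged 12 weeks and were separated by sedimentation under gravity (Sta-put), which enriches cells by size. Every library therefore carries the same deletion, so the comparison is of spermatids with spermatocytes and not of genotypes, and wild-type cells were not analysed here. No label says how many mice stand behind the 4 libraries of a cell type; a p-value thus covers only the differences among these libraries, which may be technical.

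Cell death through mitochondria is held in check by BCL2, BCL2L1 and MCL1, which bind the pore-forming effectors BAX and BAK1. BH3-only proteins such as BIM (Bcl2l11), PUMA (Bbc3) and BAD counter these guards, and an opened pore lets out cytochrome c and DIABLO, which lead through APAF1 and caspase-9 to the executioner caspases and relieve the block by XIAP. A second route runs from FAS through FADD to caspase-8, with CFLAR as its brake. In the testis, apoptosis trims the germ cells of each wave, and caspases also take part in shedding the cytoplasm of late spermatids.

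The libraries held 49000266 to 93975960 reads, and values are read counts divided by a size factor per library ("normalized counts"), on which 3 reads are worth 2.42 to 4.50. Khdrbs1 itself read 3421 to 4985 normalized counts in spermatocytes and 625 to 1129 in spermatids; all libraries share the deletion and the deleted part is not given in the sources used here, so this does not check the genotype. All 9 spermatid markers were higher in spermatids, and their summed level was 18029 to 33005 in spermatocytes against 508070 to 606010 in spermatids. The 9 spermatocyte markers summed to 215580 to 266570 and to 40459 to 57900, with 5 lower in spermatids and 1, Dmc1, higher. Piwil1, the highest of these markers in every spermatocyte library, read 118350 to 166550 there and 3574 to 5835 in spermatids. Sycp1, Sycp3 and Hormad1 were called in neither direction and overlapped between the cell types. Somatic and other germ cell RNA also moved with cell type. All 10 Sertoli cell markers were lower in spermatids, with sums of 29174, 49287, 143940 and 70428 in spermatocyte libraries 1 to 4 and of 1921 to 5976 in spermatids. Leydig cell markers were lower too, 5 of 5, with sums of 3331 to 6997 in spermatocytes and 185 to 1099 in spermatids. Macrophage and blood markers summed to 149 to 215 in spermatocytes and 1293 to 2596 in spermatids. Of 7 spermatogonia markers 3 were higher in spermatids and none lower (892 to 2067 and 2271 to 5194), and of 6 peritubular and endothelial markers 4 were higher and 1 lower (546 to 1049 and 1552 to 2226). Spermatocyte library 3 stood apart by its Sertoli markers, and spermatocyte library 4 by its meiotic genes, in both directions. Sycp1 read 1653 normalized counts there and 12680 to 26690 in the other 3, while Piwil1, at 166550, was highest there.

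Of the 45 members, 38 reached 10 normalized counts in at least 4 libraries and were tested with limma over all 28735 models that did; a member was called at an adjusted p under 0.05 with a log2 fold change of at least 1 in size. Among the 38, 18 (47.4%) were called, against 62.3% of all tested models. In spermatids 8 members were higher (21.1%, background 32.5%) and 10 were lower (26.3%, background 29.8%). The 2 cell types did not overlap in any library for 15 members (39.5%, background 66.4%). The median log2 fold change was -0.23 over the tested members and -0.01 over all tested models. Fewer cells of a type and less RNA per cell cannot be told apart in such bulk libraries. Bcl2a1d and Casp1 passed the level filter only through spermatids, where they are high, so they had to differ to be tested. Fasl passed it through all spermatid libraries and spermatocyte library 2, so its test too depended on its level in spermatids. The 7 members under the filter were Bcl2a1a, Bcl2a1c, Bcl2l10, Birc7, Casp4, Casp12 and Casp14.

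**Figure D1:**
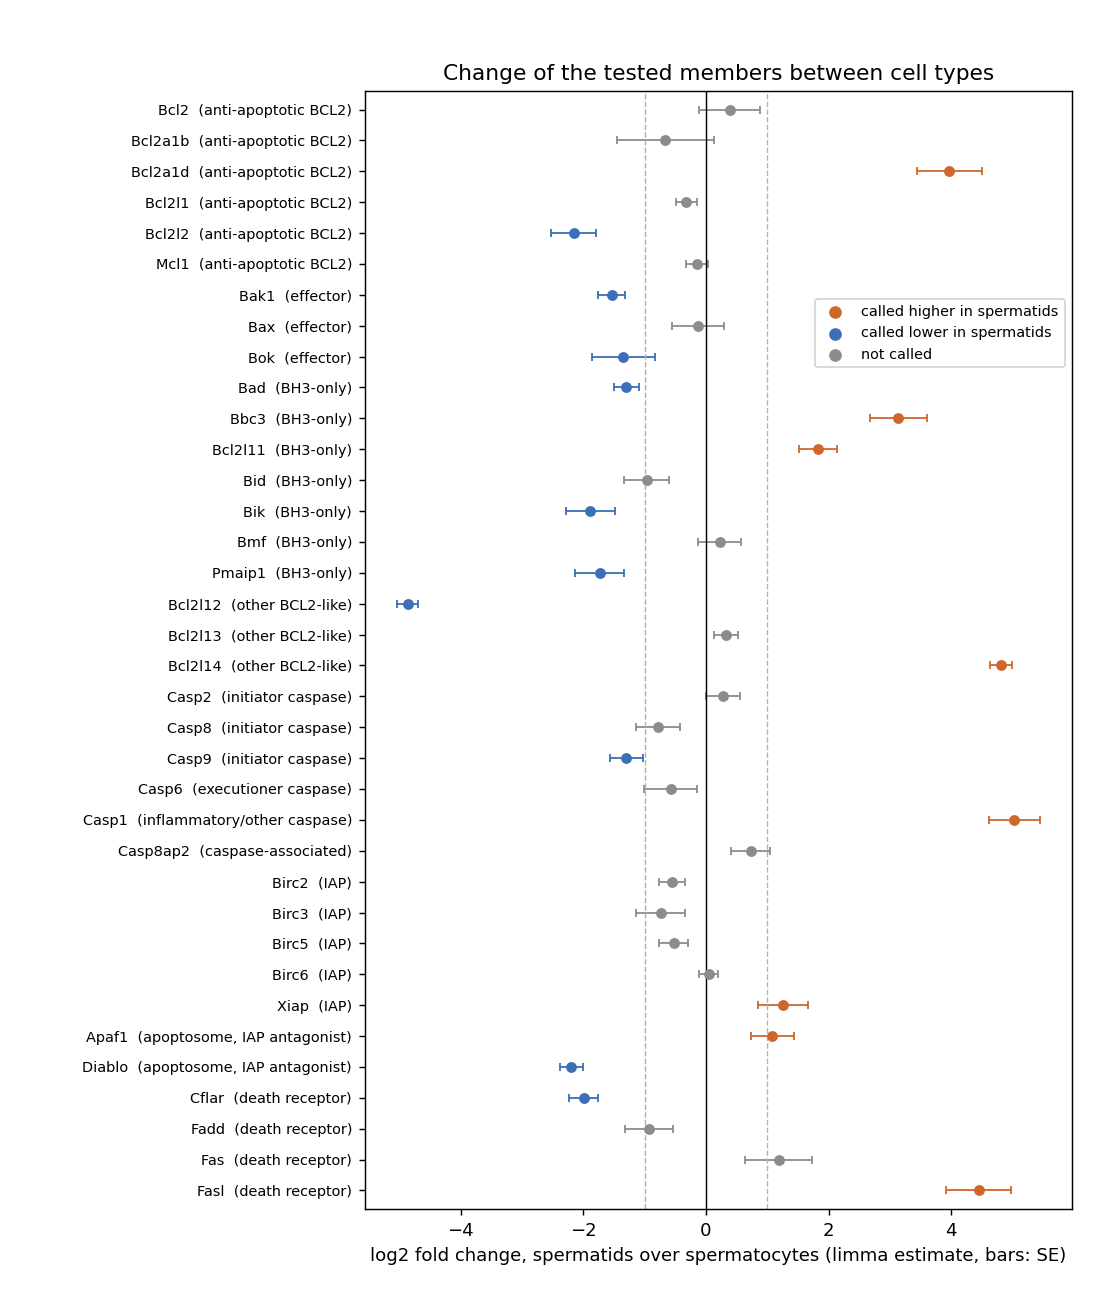
Log2 fold change of spermatids over spermatocytes for 36 tested members (x axis, limma estimate, bars are SE), grouped by role, with dashed lines at -1 and 1. Casp1, Bcl2l14, Fasl and Bcl2a1d lie at 3.97 or above, Bcl2l12 lies at -4.86, and 18 members are in grey as not called.

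Promoter sequence is shown for 4 members that the results turn on, Bcl2l14 and Bbc3, which rose in spermatids, and Cflar and Casp9, which fell, so that the contrast in their CG content can be read directly. The letters are RefSeq's on GRCm38.p6 (mm10), 5′ to 3′ on the gene's strand, all 4 on the plus strand, and capitals mark CG dinucleotides. The window ends 1 base before the RefSeq start site for Bbc3, Cflar and Casp9 and 12 bases before it for Bcl2l14. The stretches lie at chr6:134396079-134396317, chr7:16309333-16309582, chr1:58711241-58711490 and chr4:141793362-141793611.
Bcl2l14: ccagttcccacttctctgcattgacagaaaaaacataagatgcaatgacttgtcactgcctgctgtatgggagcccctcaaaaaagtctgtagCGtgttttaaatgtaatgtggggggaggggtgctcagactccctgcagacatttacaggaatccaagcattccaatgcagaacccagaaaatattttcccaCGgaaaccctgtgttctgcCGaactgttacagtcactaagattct
Bbc3: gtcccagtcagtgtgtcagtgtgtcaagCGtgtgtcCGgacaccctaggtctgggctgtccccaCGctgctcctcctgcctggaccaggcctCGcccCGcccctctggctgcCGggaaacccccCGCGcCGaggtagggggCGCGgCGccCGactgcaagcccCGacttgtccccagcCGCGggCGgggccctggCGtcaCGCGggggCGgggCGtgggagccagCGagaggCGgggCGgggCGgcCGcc
Cflar: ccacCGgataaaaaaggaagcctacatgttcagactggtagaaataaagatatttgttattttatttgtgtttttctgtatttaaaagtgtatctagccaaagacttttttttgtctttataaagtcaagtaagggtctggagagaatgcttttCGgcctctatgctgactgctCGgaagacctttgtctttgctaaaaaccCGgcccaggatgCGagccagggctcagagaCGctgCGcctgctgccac
Casp9: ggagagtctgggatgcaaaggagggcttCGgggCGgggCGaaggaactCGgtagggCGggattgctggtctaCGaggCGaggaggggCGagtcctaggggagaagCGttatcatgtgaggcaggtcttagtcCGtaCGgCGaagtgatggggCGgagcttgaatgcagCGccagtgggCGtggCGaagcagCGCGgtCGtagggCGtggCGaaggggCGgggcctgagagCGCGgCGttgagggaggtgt
Bcl2l14 holds 3 CG dinucleotides at a GC content of 45.6%, while Bbc3, which moved the same way, holds 27 at 76.4%. Cflar holds 7 at 42.8% and Casp9, also lower in spermatids, 25 at 66.0%, so the printed members differed in this feature within each direction. These 4 were picked from the called members and do not stand for the others. RefSeq promoter windows were matched for 40 of the 45 members. Median GC was 51.4% and the median CG count 5.5 over the 8 higher members, 60.6% and 12.5 over 8 of the lower ones, and 52.4% and 6 over all 32851 promoters. Over 18 members not called they were 60.2% and 17.5. Some windows lay far from the start of the gene model, among them those of Xiap (8159 bases, higher) and Bcl2l12 (1133 bases, lower). The cyclic AMP response element TGACGTCA, searched on both strands, was in 1.55% of all promoters and in none of the 40. Its first 6 bases, TGACGT, which overlap every full match, were in 6.47% of all promoters and in those of Bcl2 and Bcl2l13, neither of which was called.

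Mcl1 and Bcl2l1, the most abundant guards of the mitochondrion per kb, did not pass the test between the cell types. Mcl1, a short-lived guard at chr3:95658721-95663176, read 8556, 9510.4, 8473 and 5712 normalized counts in the spermatocyte libraries and 7042, 7266, 7107 and 7203 in spermatids. The groups overlapped, and the log2 fold change was -0.15 ± 0.18 SE, limma adjusted p = 0.48. Bcl2l1, which encodes BCL-XL, read 5029.7 to 6763 in spermatocytes and 3981 to 5849 in spermatids, also overlapping (-0.32, limma adjusted p = 0.12). Bcl2 itself was scarce, at 12.1 to 32.0 in spermatocytes and 11.2 to 37.5 in spermatids, and its estimate of 0.39 ± 0.49 SE did not pass. Per kb of exon Mcl1 stood at 2359 normalized counts in spermatocytes and Bcl2 at 2.43.

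Bcl2l2, which encodes BCL-W, a guard that male germ cells need, fell. At chr14:54883395-54888232 it read 179.7, 217, 607 and 297 normalized counts in spermatocytes and 62.7, 53.3, 79.6 and 64.2 in spermatids. All spermatocyte libraries were above all spermatid libraries, and library 3, the one with the most Sertoli marker RNA, was the highest. The log2 fold change was -2.15 ± 0.36 SE, limma adjusted p = 1.8e-04, and -1.60 without spermatocyte libraries 3 and 4. The part of Sertoli cell RNA in it was not tested. Gm20521 shares 594 bases of exon with Bcl2l2 on the same strand, and no level was available for it. Bcl2a1d, one of the near-identical Bcl2a1 copies whose reads a counter may split, read 0.81, 3.93, 0 and 1.14 in spermatocytes, which is 6 reads in all, and 41.2, 15.9, 48.0 and 31.6 in spermatids, 124 reads. Its estimate of 3.97 ± 0.53 SE (limma adjusted p = 2.4e-05) was 2.10 with a pseudocount of 8 in place of 1. The antisense gene Gm10634 overlaps the Bcl2a1d gene with 0 shared bases of exon. It averaged 2636 normalized counts in spermatocytes and 4729 in spermatids, and its part in the Bcl2a1d reads was not tested. Bcl2a1d passed the level filter only through spermatids, so it had to be higher there to be tested. Bcl2a1b, another copy, was not called (-0.66, limma adjusted p = 0.46), while Bcl2a1a, Bcl2a1c and Bcl2l10 stayed under the filter with 4 to 25 reads over the 8 libraries.

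Among the pore-forming effectors, Bak1 and Bok fell and Bax did not pass. Bak1, at chr17:27019810-27028627, read 664, 691, 668 and 734 normalized counts in spermatocytes and 202, 332, 231 and 205 in spermatids. No library overlapped, with a mean 2.84 times higher in spermatocytes (-1.53 ± 0.22 SE, limma adjusted p = 4.8e-05). Exons of Ggnbp1 on the other strand cover part of the Bak1 exons, and strand handling in the counting is not given in the sources used here. Bax read 143, 174, 363 and 242 in spermatocytes and 400.3, 94.4, 173 and 229.7 in spermatids, groups that overlapped (-0.13 ± 0.43 SE, limma adjusted p = 0.79). Bok read 12.9, 48.1, 58.1 and 70.8 in spermatocytes and 11.6, 19.6, 18.0 and 13.1 in spermatids; spermatocyte library 1 lay within the spermatid range. Its call (-1.34 ± 0.51 SE, limma adjusted p = 0.031) was lost without spermatid library 1 or 4 and without spermatocyte library 2, 3 or 4, each left out in turn, and the estimate was -0.68 without spermatocyte libraries 3 and 4 (limma adjusted p = 0.26).

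The BH3-only genes split, with Bbc3 and Bcl2l11 higher in spermatids and Bad, Bik and Pmaip1 lower. Bbc3, which encodes PUMA and is a p53 target, lies at chr7:16309583-16318334 and read 29.8, 13.7, 78.3 and 68.5 normalized counts in spermatocytes and 295, 401, 381 and 329 in spermatids. The lowest spermatid library was above the highest spermatocyte library, and spermatocyte libraries 3 and 4 were the higher pair. The log2 fold change was 3.14 ± 0.47 SE, limma adjusted p = 6.4e-05, and 4.04 without those libraries. Bcl2l11, which encodes BIM, at chr2:128126037-128162550, read 87.0, 65.8, 183 and 106 in spermatocytes and 347, 321, 407 and 405 in spermatids. Again no library overlapped (1.83 ± 0.31 SE, limma adjusted p = 1.9e-04).

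Bad, a BH3-only protein switched off by phosphorylation and the one with the highest level per kb of this class, read 4307, 3611, 2712 and 3959 normalized counts in spermatocytes and 1308, 1892, 1473 and 1242 in spermatids. Every spermatocyte library exceeded every spermatid library (-1.30 ± 0.20 SE, limma adjusted p = 8.9e-05). Gpr137 overlaps it on the other strand and averaged 3042 in spermatocytes and 2865 in spermatids. Bik, which acts at the endoplasmic reticulum, read 79.0, 81.5, 220.3 and 93.6 in spermatocytes and 42.1, 19.6, 30.0 and 26.1 in spermatids. Spermatocyte library 3 was the highest here as well, and the groups did not overlap (-1.88 ± 0.40 SE, limma adjusted p = 9.5e-04; -1.47 without spermatocyte libraries 3 and 4). Pmaip1, which encodes NOXA, the partner of MCL1, read 951, 780.2, 841 and 373 in spermatocytes and 425, 123, 155 and 231 in spermatids. Spermatid library 1 lay above spermatocyte library 4, and the call stood (-1.73 ± 0.40 SE, limma adjusted p = 0.0018). Bid, the link from the death receptor route, passed the adjusted p but not the fold (-0.96 ± 0.37 SE, limma adjusted p = 0.032), and its exons overlap those of Bcl2l13 by 628 bases on the other strand. It was called lower without spermatid library 1 (-1.23) and without spermatocyte library 1 (-1.18) or 2 (-1.04). Bmf did not pass (0.22, limma adjusted p = 0.59).

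Bcl2l12 and Bcl2l14, BCL2-like genes outside the classical guards and effectors, moved in opposite directions. Bcl2l14, also known as Bcl-G, lies at chr6:134396326-134438724 and read 884, 947, 1137 and 909.9 normalized counts in spermatocytes. It read 20634, 27038, 30880 and 30960 in spermatids, a mean 28.2 times higher. Each spermatid library was far above every spermatocyte library (4.81 ± 0.18 SE, limma adjusted p = 1.1e-09). Per kb of exon its level went from 237 to 6689 normalized counts, from percentile 63.4 to percentile 95.1 of the tested models with an exon length. The antisense gene 4933406J09Rik shares 577 bases of exon with Bcl2l14, and no level was available for it. Reads of the shared bases cannot be told apart without the strand setting.

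Bcl2l12, a nuclear and cytoplasmic member, lies at chr7:44991223-44998712 and read 10938, 10546, 10413 and 11151 normalized counts in spermatocytes. It read 362, 478, 311 and 343 in spermatids, so the spermatocyte mean was 28.8 times higher. The spread within each cell type was small beside that gap (-4.86 ± 0.17 SE, limma adjusted p = 9.5e-10). The opposite strand carries Irf3, which shares 88 bases of exon and averaged 6048 and 846 normalized counts, and the antisense gene Gm15545, which shares 572 bases and averaged 1634 and 59.3. All 3 means were lower in spermatids, and the reads of these genes cannot be told apart without the strand setting. Bcl2l13, a mitochondrial member, did not pass (0.33 ± 0.20 SE, limma adjusted p = 0.16).

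**Figure D2:**
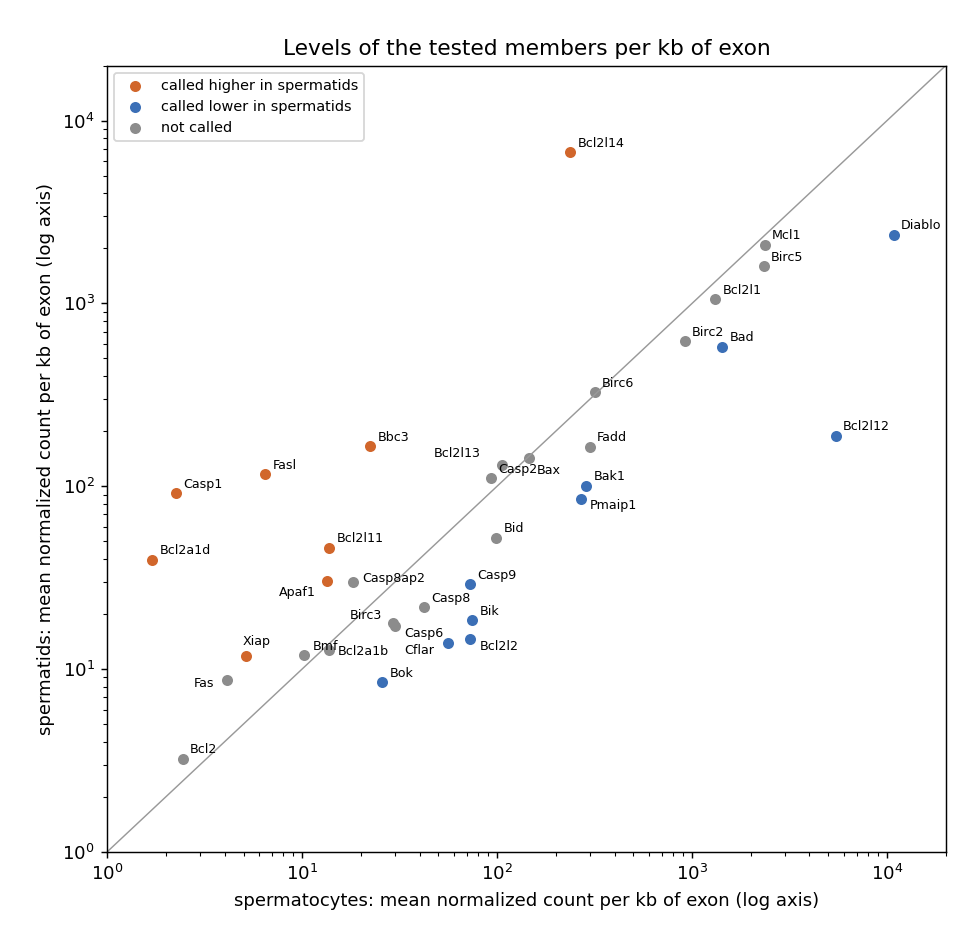
Mean normalized count per kb of exon in spermatocytes (x, log axis) and spermatids (y, log axis) for 36 tested members, 4 libraries per mean, with the line of equal level. Diablo has the highest level in spermatocytes and Bcl2l14 in spermatids, Mcl1 and Birc5 lie close to the line, and Casp1, Bcl2a1d and Fasl lie high above it at low levels.

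Of the initiator caspases, which start the cascade, Casp9 fell. Casp9, activated on the apoptosome, lies at chr4:141793612-141815978 and read 301, 308, 380.2 and 518 normalized counts in spermatocytes and 194, 155, 139.6 and 118 in spermatids. The groups did not overlap (-1.30 ± 0.26 SE, limma adjusted p = 7.8e-04). Casp8, of the death receptor route, read 78.2, 95.2, 233 and 79.9 in spermatocytes and 62.7, 69.2, 63.1 and 56.6 in spermatids, with spermatocyte library 3 by far the highest. Its groups did not overlap either, but it did not pass (-0.78 ± 0.36 SE, limma adjusted p = 0.070). Casp2, the initiator with the highest level per kb, read 438, 589, 999 and 604 in spermatocytes and 1118, 626, 721 and 658 in spermatids and overlapped (0.27, limma adjusted p = 0.39).

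Casp6, an executioner caspase, one of the proteases that cut cell proteins, read 71.7, 90.3, 311 and 195 normalized counts in spermatocytes and 73.4, 94.4, 117 and 96.9 in spermatids. The spermatocyte libraries spread more than the cell types differed (-0.58 ± 0.43 SE, limma adjusted p = 0.24). Casp6 was not called, but was called lower after GC correction (-1.24). That correction also evens out the mean level of the libraries. Casp8ap2, a large nuclear protein that binds caspase-8, read 115, 134, 174 and 75.3 in spermatocytes and 296, 167, 171 and 185 in spermatids. Its groups overlapped and it did not pass (0.73 ± 0.31 SE, limma adjusted p = 0.054).

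Casp1, the inflammasome protease that matures interleukin-1 beta, had the highest log2 fold change of the members. At chr9:5298517-5307289 it read 1.61, 3.93, 2.24 and 5.71 normalized counts in spermatocytes, 13 reads in all, and 124, 89.7, 150.1 and 184 in spermatids, 503 reads. No library came near the other cell type (5.03 ± 0.41 SE, limma adjusted p = 4.0e-07), and the estimate was 3.64 with a pseudocount of 8. Casp1 passed the level filter only through spermatids, so it had to be higher there to be tested. Casp4 lies 1.57 kb from it and Casp12 a further 8.68 kb along. Both stayed under the filter with 10 and 9 reads in spermatocytes against 53 and 85 in spermatids. Casp14, of skin, had 0 and 6. Macrophage and blood marker RNA moved the same way, with 6 of the 7 tested markers higher in spermatids. The globin genes of that list did not share this: Hba-a1 was at 0 in all but 1 library, and Hbb-bs read 7.25 to 13.4 in spermatocytes and 2.69 or 0 in spermatids. The part of macrophage and blood RNA in the values of Casp1, Bcl2a1d and Fasl was not tested.

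**Figure D3:**
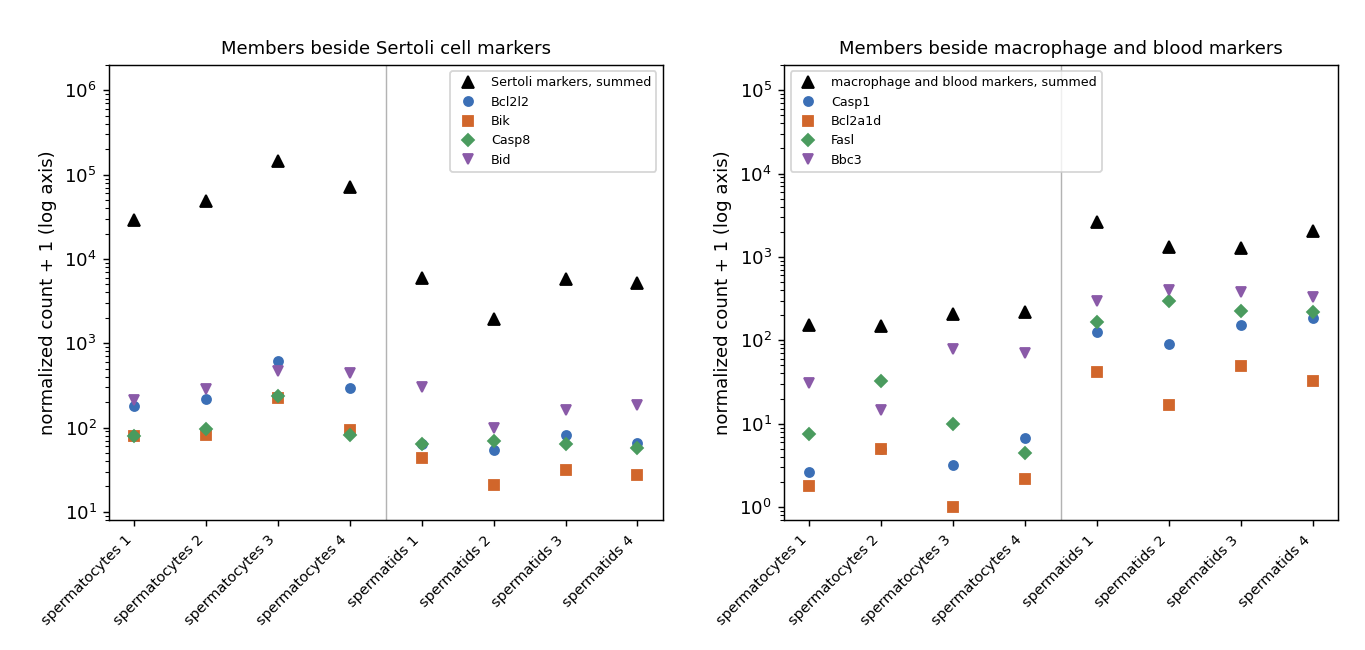
Normalized count plus 1 (log axis) in each of the 8 libraries for members and, in black, for the summed markers of another cell type: Sertoli cells with Bcl2l2, Bik, Casp8 and Bid (left), macrophages and blood with Casp1, Bcl2a1d, Fasl and Bbc3 (right). Spermatocyte library 3 is highest for the Sertoli sum, 143940, and for Bcl2l2, Bik, Casp8 and Bid, and the macrophage and blood sum is at 1293 or more in every spermatid library.

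Among the inhibitors of apoptosis, Xiap was the one called, but after a correction for GC content it was not, and Birc2 (-1.53), Birc3 (-1.51) and Birc5 (-1.25) were called lower. Xiap, the direct inhibitor of caspases and the only member on the X chromosome, read 36.3, 45.1, 89.5 and 25.1 normalized counts in spermatocytes and 167, 72.9, 99.1 and 107 in spermatids. Spermatid library 2 lay below spermatocyte library 3. The call (1.26 ± 0.41 SE, limma adjusted p = 0.015) was lost with libraries scaled to equal total reads (0.83) or by quantiles (0.89), and the sign turned after a correction for GC content (-0.23). The correction also evens out the mean level of the libraries, and the part of GC content in the changes after it was not tested. Birc5, or survivin, which also serves the mitotic and meiotic spindle, had the highest level per kb of the class. It read 7725, 8582, 5097 and 10268 in spermatocytes and 4038, 6814, 5907 and 5027 in spermatids, and spermatocyte library 3 fell within the spermatid range (-0.52 ± 0.24 SE, limma adjusted p = 0.065). The neighbours Birc2 and Birc3, 13.4 kb apart, were estimated at -0.55 ± 0.21 SE (limma adjusted p = 0.033, under the fold) and -0.74 ± 0.40 SE (limma adjusted p = 0.11), and Birc3 was called lower, at -1.07, without spermatid library 1. Birc6, a very large ubiquitin ligase, read 8160 ± 639 (SD, n = 4) and 8412 ± 737 (SD, n = 4) and was at 0.04. Birc7 had 1 read in each cell type.

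Diablo, which frees caspases from XIAP once it leaves the mitochondrion, was the member with the highest level per kb in spermatocytes. At chr5:123509766-123524164 it read 69390, 67417, 53715 and 76288 normalized counts there and 13959, 19352, 12906 and 12462 in spermatids. The groups were far apart (-2.20 ± 0.19 SE, limma adjusted p = 5.8e-07), with a spermatocyte mean 4.55 times that in spermatids. Per kb of exon the level went from 10818 to 2379 normalized counts, percentiles 98.5 and 88.2. B3gnt4 shares 1326 bases of exon on the other strand and averaged 114 normalized counts in spermatocytes and 131 in spermatids. Gm49027 shares 1193 bases of exon with Diablo on the same strand, and no level was available for it. Apaf1, the apoptosome scaffold, read 93.5, 105, 170.0 and 116 in spermatocytes and 466, 148, 236 and 243 in spermatids; spermatid library 2 lay below spermatocyte library 3. Its call (1.08 ± 0.35 SE, limma adjusted p = 0.015) was lost without spermatid library 1 (0.78), without spermatocyte library 1 (0.97), with equal total reads (0.64), by quantiles (0.70) and after GC correction (0.27).

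In the death receptor route the ligand rose and the brake fell. Fasl, the ligand of FAS, at chr1:161780689-161788495, read 6.45, 31.4, 8.95 and 3.42 normalized counts in spermatocytes and 165, 293, 224 and 219 in spermatids. Spermatocyte library 2 was the highest of its group and still far below every spermatid library. The log2 fold change was 4.45 ± 0.53 SE, limma adjusted p = 8.8e-06, 3.65 with a pseudocount of 8 and 3.83 without spermatocyte libraries 3 and 4. Cflar, at chr1:58711507-58758880, read 745, 624, 887 and 565 in spermatocytes and 215, 146, 182 and 160.0 in spermatids. No library overlapped (-1.99 ± 0.23 SE, limma adjusted p = 7.8e-06), and the next member on the chromosome, Casp8, lies 36.5 kb away. Fadd, the adaptor, read 799, 2035, 822 and 1007 in spermatocytes and 411, 1272, 464 and 420.1 in spermatids. Library 2 was the highest in each cell type, and the estimate of -0.93 ± 0.39 SE did not pass (limma adjusted p = 0.050); without spermatid library 2 it was -1.32 (limma adjusted p = 0.0035), and it was called too without spermatocyte library 1 (-1.07) or 3 (-1.06). Fas, the receptor, was scarce at 2.94 to 14.5 in spermatocytes and 9.01 to 25.1 in spermatids (1.18 ± 0.54 SE, limma adjusted p = 0.068). It was called higher, at 1.46 to 1.51, without spermatid library 3 and without spermatocyte library 1 or 3. Scaling by quantiles called Fas higher as well (1.29).

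**Figure D4:**
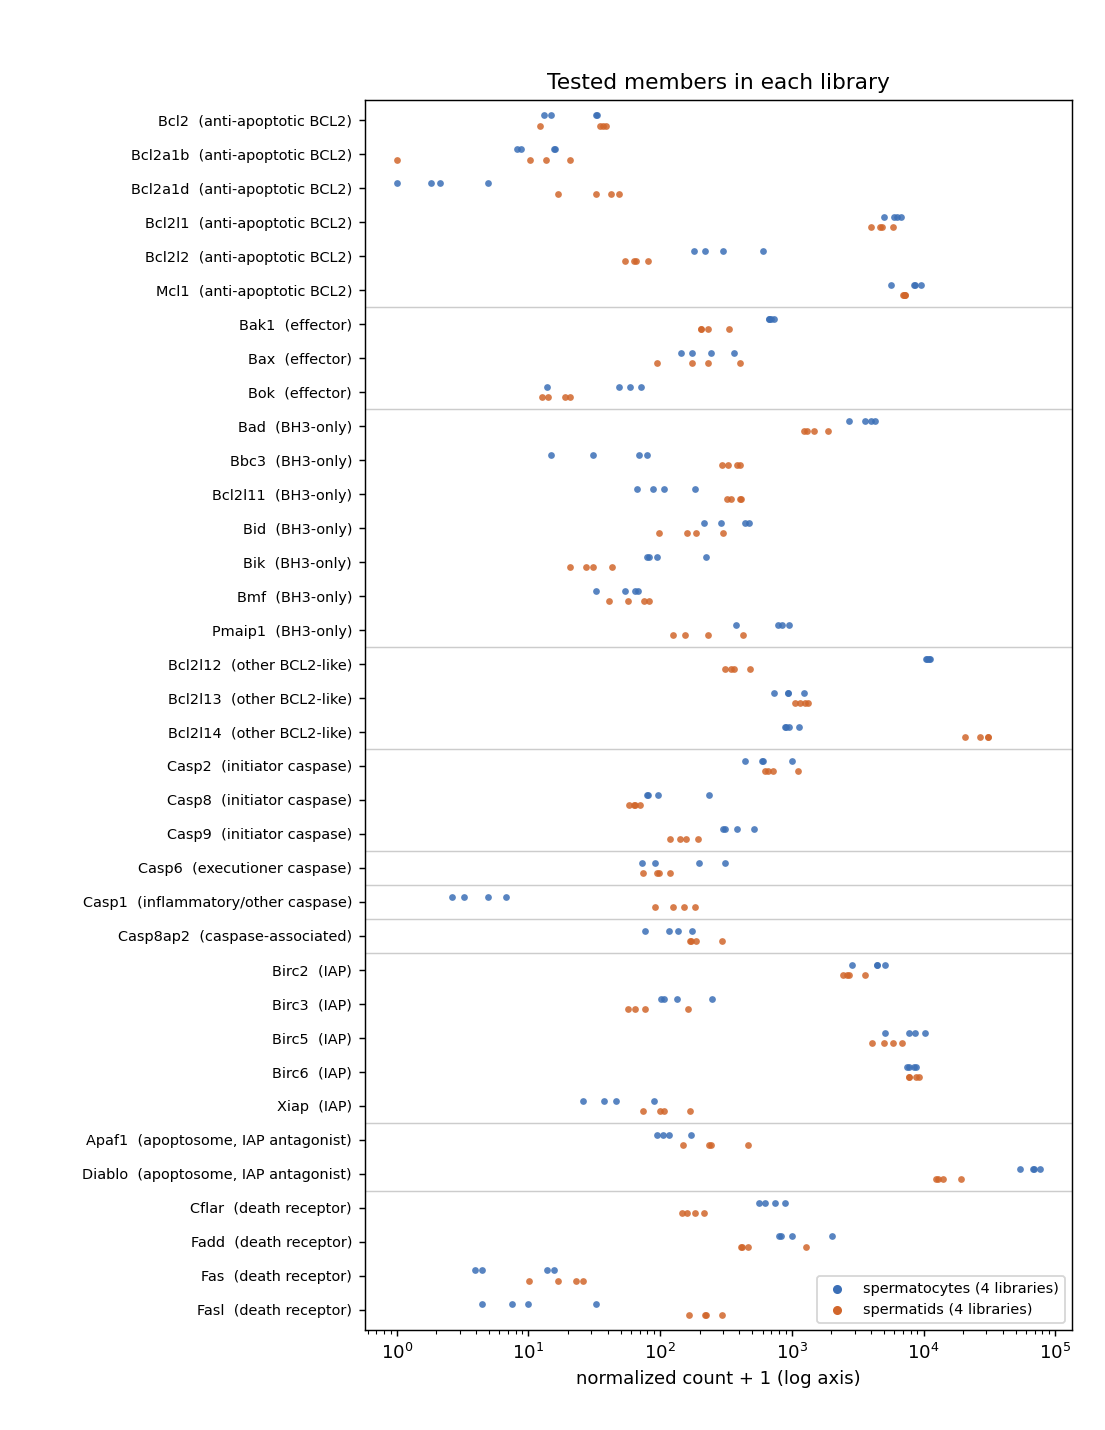
Normalized count plus 1 (log axis) of 36 tested members in each library, coloured by cell type, 4 points each. Bcl2l14, Casp1, Fasl and Bbc3 show 2 separate sets of points with spermatids to the right, Bcl2l12, Diablo and Cflar with spermatids to the left, and Mcl1, Birc6 and Bax show mixed points.

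Single libraries held the extremes of many members. Spermatocyte library 1 was the lowest of its group for 17 of the 38 tested members (44.7%, against 24.2% of all tested models), and so was spermatid library 2 of its group (17, against 25.9%). Spermatocyte library 3 was the highest for 17 of the 38 tested members (44.7%, against 35.0% of all tested models), among them Bcl2l2, Bik, Bid, Casp8 and Casp6. Spermatid library 1 was the highest for 16 (42.1%, against 28.4%), among them Bax, Bid, Pmaip1, Casp2, Xiap and Apaf1. Among spermatid libraries that library had the highest sums of 6 of the 7 marker lists, all but the spermatid list; the spermatogonia sum was 5194 against 2271 to 2821 in the other 3. Their part in these members' levels was not tested.

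Ratios of paired members within a library depend little on its scaling (through the added count of 1, which matters most for low genes), and 8 pairs were compared with an exact two-sided permutation test that can give no p below 0.0286. After adjustment over the 8 pairs none passed, and 1 had an unadjusted p under 0.05. A pair standing alone at the smallest p could not pass this adjustment, however well separated, so the lack of passing pairs is not evidence of equal ratios. For Bcl2l2 against Bcl2l1, the genes of BCL-W and BCL-XL, the log2 ratio was -4.36 ± 0.91 (SD, n = 4) in spermatocytes. In spermatids it was -6.20 ± 0.38 (SD, n = 4), without overlap (exact permutation p = 0.0286, adjusted 0.229). Bax against Bak1 was at -1.67 ± 0.59 and -0.27 ± 1.17 (exact permutation p = 0.0857, adjusted 0.305, n = 4). Cyct against Cycs, the testis and somatic forms of cytochrome c, was at 4.80 ± 1.22 and 3.69 ± 0.45 (exact permutation p = 0.114, adjusted 0.305, n = 4). The pairs Casp9/Casp8, Birc2/Birc3, Bcl2l1/Bax and Mcl1/Bcl2l1 overlapped and had exact permutation p-values of 0.314 or more.

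Of 58 other genes of the pathway that were listed, 56 were found and 54 tested; 12 were higher in spermatids, 17 lower and 25 not called (22.2%, 31.5% and, in either direction, 53.7% called, against 32.5%, 29.8% and 62.3% of all tested models), with a median log2 fold change of -0.18. Tnf and Trp73 passed the level filter only through spermatids, so these 2 had to be higher there to be tested. Of 11 genes of mitochondrial release, 1 rose, Aifm3 (1.40), and 3 fell, among them Vdac1, an outer membrane channel (-2.14), and Htra2, an IAP antagonist (-1.35). The more abundant channel genes Vdac2 (0.34) and Vdac3 (0.24) were not called. Of 15 tested BCL2 partners 5 rose, led by Tmbim6, or BAX inhibitor 1 (2.16), and Bcap31 (1.81), while Bag2 (-2.54) and Faim (-1.80) fell. Vdac1, Bag2 and Faim were highest in spermatocyte library 3. Tmbim6 read 3887, 3536, 3309 and 4055 normalized counts in spermatocytes and 15949, 15976, 17968 and 16108 in spermatids, with no overlap.

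Of 11 tested genes of the death receptor list 3 rose and 4 fell, with Tnf among the 3. Tnf, the cytokine, was at 0 in 3 spermatocyte libraries and at 3.35 in the other, which is 3 reads, against at least 15.01 in every spermatid library and 151 in the highest, library 1. Mlkl, the effector of necroptosis, rose (3.03 ± 0.39 SE, limma adjusted p = 1.7e-05), and the adaptors Traf2 (-2.32) and Tradd (-2.03) fell. In the p53 list of 9 genes, Trp73 (3.57) and Trp63 (1.58) rose, and Trp53 (-2.02) and Lrdd, the PIDD1 gene (-1.67), were among 3 that fell. Of 8 execution genes, Gsdmd, the pyroptosis pore (2.67), rose and 5 fell. Dffb, the caspase-activated DNase, was among them and read 365, 276, 231 and 376 in spermatocytes and 51.9, 41.1, 28.5 and 37.0 in spermatids (-2.95 ± 0.29 SE, limma adjusted p = 1.8e-06). Cidea was another (-3.76), highest in spermatocyte library 3.

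The split between higher and lower members depended on how libraries were scaled. With the deposited size factors 44.4% of called members were higher in spermatids. The share was 30.0% (6 higher, 14 lower) with libraries scaled to equal total reads, 31.8% (7 and 15) by quantiles and 26.1% (6 and 17) after correction for GC content. Of all called models, 52.2% were higher with the deposited size factors, 42.6% with equal totals and 44.5% by quantiles. Among called models with a GC value, 62.6% were higher before that correction and 43% after it. The correction removes the mean level of each library along with its trend on GC content, and their parts were not separated. Equal totals moved the median of all models from -0.01 to -0.44 and that of the members from -0.23 to -0.67. All 10 lower members kept their call under these 3 settings, and of the 8 higher members Xiap and Apaf1 lost theirs.

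**Figure D5:**
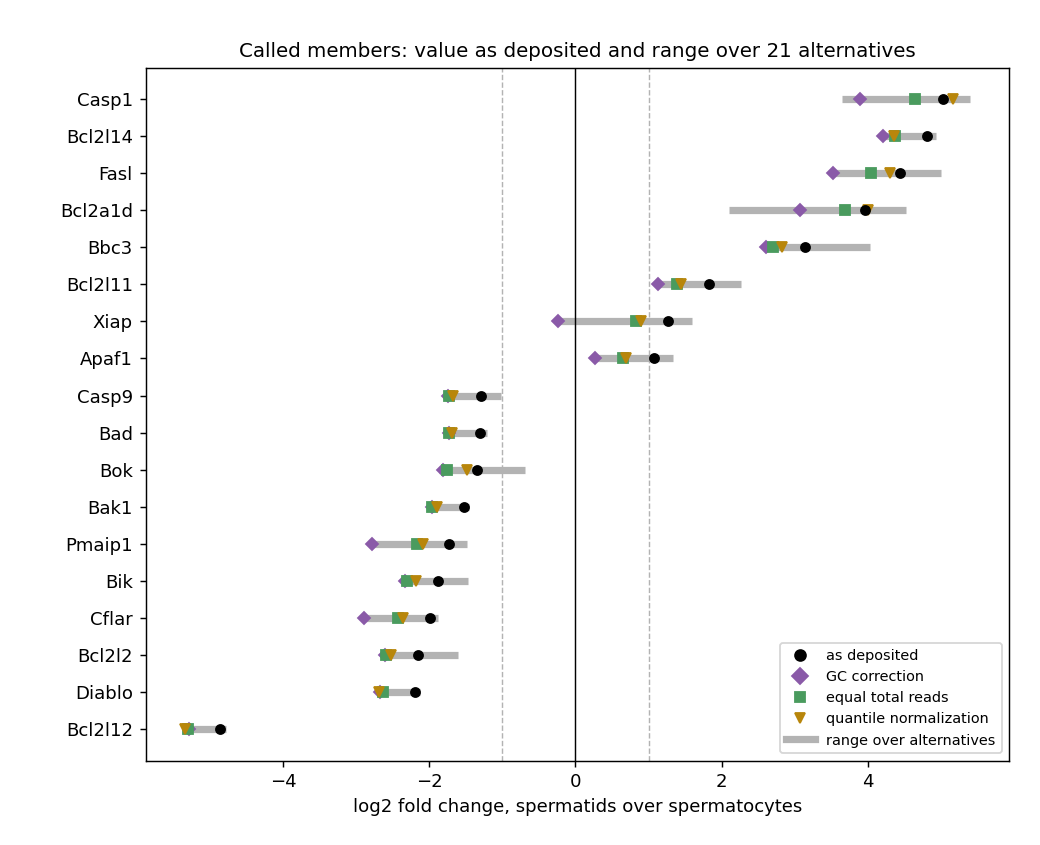
Log2 fold change of the called members (spermatids over spermatocytes): the black point is the estimate as reported, coloured markers are 3 other scalings, and the line spans the range over 21 alternative settings (20 for Bcl2a1d and Bok, which are under the filter of 50 normalized counts). Bcl2l12, Bcl2l14 and Diablo keep narrow ranges far from 0, while the lines of Xiap, Apaf1 and Bok reach inside the threshold of 1.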

How the data were processed

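RNA of 8 libraries, 4 of spermatocytes and 4 of spermatids, was measured on polyadenylated RNA with a stranded kit, per the labels' protocols. The deposited signal is each model's reads scaled by 1 size factor for every library. Coordinates are mm10 per the file headers. STAR 2.4.0, SAMtools, Picard, FastQC and DESeq stand in the submitters' processing notes. How reads were counted, with which strand setting and filters, is not stated by the labels or headers. A further 8 per-sample columns of the table were left out. Replicates were numbered in record order, and no 2 libraries of a cell type agreed within sampling noise (lowest chi-square per degree of freedom 12.2).

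A model entered the test when 4 or more libraries reached 10 normalized counts. The test was limma 3.58.1 (trend, robust; R 4.3.3) on log2(normalized count + 1), so that folds of low genes are understated, with Benjamini-Hochberg adjustment over all 28735. All values above 0 (100%) lay within 10% of a step from a whole number of reads; edgeR 4.0.16 on these reads called 9272 models higher and 8634 lower, and DESeq2 1.42.0 was a further alternative. In simulated data, of which 27893 genes were tested, 200 genes had been changed, some by 2-fold and the others by 4-fold. The limma steps called 15.3% of those changed 2-fold, which is the threshold of the call, and 60.2% of those changed 4-fold. In the data 62.3% of models were called, so the adjustment was stricter in the simulation and its rates do not carry over directly. Members and lists were chosen with earlier results of these data known. The values of 2 tested members are not reported here, though counts over the members include them. Every other member is named; full values are given for the 2 called members with the largest change in each direction of each role, for the member with the highest level per kb of each role, and for some others chosen after their values were seen. Of the other pathway genes, the 2 called with the largest change in each direction of each list are named. Tmbim6, Dffb and Tnf carry more values, and Vdac2 and Vdac3 are named beside Vdac1. Bfar, Septin4 and Insl3 were listed but not found. Exons and coordinates are those of GENCODE vM21 on GRCm38, which is mm10.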

Additional observations from a re-analysis of the deposited data

Results flagged for a closer look

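The libraries of 1 cell type were compared for each of the 38 tested members, 76 sets of 4 libraries in all, and a library was picked out where its distance to the nearest other was above the 95% critical value of Dixon's test, taken as a share of the range. Chance picks out about 1 in 20 such sets, and 3 of the 76 were picked. Bcl2 read 11.2 normalized counts in spermatid library 2, against 33.7 to 37.5 in the other 3. Bik read 220.3 in spermatocyte library 3, against 79.0 to 93.6, in the library that also had the highest Sertoli marker sum. Fadd read 1272 in spermatid library 2, against 411 to 464.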

How the results depend on the processing

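No paired analysis was possible because the labels give the libraries no replicate numbers. Under 21 alternatives (20 for Bcl2a1d and Bok, not tested with a filter of 50 normalized counts) the 18 called members kept their direction except Xiap, at -0.23 after the correction for GC content, an alternative added after seeing the data like the fit to models with a GC value and the fit without spermatocyte libraries 3 and 4. GC correction, which also evens out the mean level of the libraries, called 17 members lower and 27 pathway genes lower. Over all models it called 10890, of which 4680 higher; the models with a GC value alone gave 9602, of which 6011 higher and 3591 lower. A filter of 50 normalized counts left 5470 models lower, and no filter 14333; fewer and more models were tested. Leaving out 1 library gave 17 to 20 called members (7 to 10 higher, 9 to 12 lower), 28 to 31 pathway genes (11 to 13 higher, 16 to 19 lower) and 17438 to 17967 models (9096 to 9376 higher, 8339 to 8690 lower). It left 0 to 0 pairs passing, at a smallest possible exact p of 0.0571. Bid, Casp8, Birc3 and Fadd were called lower with equal totals, quantiles and GC correction, from -1.13 to -1.55. GC correction also called Birc2 (-1.53), Birc5 (-1.25) and Casp6 (-1.24) lower. Quantiles also called Birc5 lower (-1.02) and Fas higher (1.29). edgeR, DESeq2, TMM and the pseudocounts of 0.5 and 8 called the same 8 higher and 10 lower members. The causes were not tested. Members under about 10 normalized counts rest on few reads, and a true 2-fold change lies on the threshold of the call, so that many are missed whatever the depth.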
